A study of Homo sapiens with 15 samples.

Results

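HOX genes encode homeodomain transcription factors that lie in 4 clusters, HOXA, HOXB, HOXC and HOXD, and give cells their position along the head-to-tail axis of the embryo. The genes described here are all genes of the deposited count table whose symbol is HOX followed by a cluster letter and a number, with antisense genes left out. That rule found 39 of the 60675 genes listed: 11 in HOXA, 10 in HOXB, 9 in HOXC and 9 in HOXD. The cells were H9, an established human embryonic stem cell line without an engineered change, left to differentiate spontaneously in medium with serum and then, from day 5, given ascorbic acid, β-glycerophosphate and vitamin D3. Polyadenylated RNA was sequenced on day 7. Particles, where given, were present from day 0.

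The 15 libraries form 5 groups of 3. UNT is the vehicle control, with DMSO at 0.1%. FPM IC25 and FPM IC50 received fine particulate matter at 0.00062 and 1.4 µg/mL, and SRM IC25 and SRM IC50 received a NIST standard reference material at 0.003 and 5.9 µg/mL. The labels name the concentrations after the inhibitory level on a protein basis that each was meant to reach. All 5 groups share the line, the medium and the osteogenic supplements. A DMSO level was recorded for UNT only, so the vehicle of the particle groups is not known here. The labels do not say whether the 3 libraries of a group came from separate cultures, so the p-values measure the spread between these libraries, which may be technical.

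HOX genes are switched on in the order of their position in the cluster. Paralog group 1 starts first, and groups 9 to 13 start last and in the trunk, tail and distal limb. Retinoic acid, WNT and FGF signals and the CDX factors open the clusters from the early end, Polycomb complexes hold the later genes silent, and PBX and MEIS proteins (the TALE homeodomain family) bind DNA together with HOX proteins. In the head, groups 1 to 4 pattern the hindbrain and the neural crest that leaves it.

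Promoter windows from RefSeq (GRCh38.p14) were matched by symbol for 20 of the 39 genes. Among the 7 genes with enough reads to test they were held for HOXA2, HOXB1 and HOXC4. Those of HOXA2 and HOXB1 are shown because both genes were higher in SRM IC50 libraries than in every control library. Each sequence is the 250 bases before the gene's RefSeq start, 5′ to 3′ on the gene's own strand, which is the minus strand for both. Capitals mark a match to TGATNNAT, the letters of the composite element that PBX and HOX proteins bind as a pair, or its reverse complement. The HOXA2 window is chr7:27102684-27102933 and the HOXB1 window is chr17:48531012-48531261.
HOXA2: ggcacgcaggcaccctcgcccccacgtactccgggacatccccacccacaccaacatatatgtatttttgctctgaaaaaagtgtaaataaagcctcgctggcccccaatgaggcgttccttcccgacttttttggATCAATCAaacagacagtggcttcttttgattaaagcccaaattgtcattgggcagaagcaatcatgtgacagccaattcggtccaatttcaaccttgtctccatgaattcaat
HOXB1: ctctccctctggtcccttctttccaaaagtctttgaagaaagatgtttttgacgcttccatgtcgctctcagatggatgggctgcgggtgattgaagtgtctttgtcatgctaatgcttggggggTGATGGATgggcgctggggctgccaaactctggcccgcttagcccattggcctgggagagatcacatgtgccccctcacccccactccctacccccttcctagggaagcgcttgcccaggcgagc
The matches read ATCAATCA in HOXA2, beginning 114 bases before the start, and TGATGGAT in HOXB1, beginning 125 bases before it. On either strand, TGATNNAT was found in 6.47% of all 35116 windows and in 3 of the 26 distinct HOX windows, those of HOXA2, HOXB1 and HOXD11. The MEIS letters TGACAG were found in 13.03% of all windows and in HOXA2 and HOXA4, and the retinoid half-site letters AGGTCA in 12.1% of all windows and in 0 HOX windows. The 2 motifs found in HOXA2 do not overlap there. In GENCODE release 29 the HOXA2 gene begins further out, so 128 bases of its window, all 8 of the match among them, lie inside that gene model, while 0 bases of the HOXB1 window lie inside the HOXB1 model. A match to letters is not a measured binding site. Autoregulation by HOX and PBX proteins through such composite elements is a textbook feature of HOXB1.

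Library totals ran from 9340745 to 58239176 counts, and the deepest libraries were FPM IC25 replicate 3 and SRM IC25 replicate 2. HOX genes received 9331 counts in all. The FPM libraries stood apart from the other 9 in the share of counts on genes annotated as antisense, at 1.072% ± 0.173 (FPM IC25) and 1.21% ± 0.252 (FPM IC50) against 0.2825% ± 0.0077 in UNT (SD, n = 3). Of the osteoblast markers, COL1A1 was at 230.5 CPM (counts scaled to a common library size) in UNT, SP7 at 0.82, BGLAP at 0.25 and IBSP at 0.02. SP7, BGLAP and IBSP were thus near 0. The sum over all 8 markers was 672.5 to 766.6 CPM in UNT, so members not named here held much of it. The pluripotency factor POU5F1 was at 231.7.

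The early end of the clusters held nearly all HOX transcripts. Genes of paralog groups 1 to 3 took 90.77% ± 1.35 of HOX counts in UNT (SD, n = 3), groups 4 to 8 took 5.09% ± 0.839 and groups 9 to 13 took 4.14% ± 1.54. HOXB contributed 64.11% ± 1.88 of UNT HOX counts, HOXA 29.41% ± 1.74, HOXC 5.537% ± 1.5 and HOXD 0.9431% ± 0.487. On the per-length FPKM scale (fragments per kilobase of gene length, scaled to the library total), averaged over the 15 libraries, HOXB2 had the highest level at 4.90, with HOXB1 at 1.98, HOXA2 at 0.60, HOXC13 at 0.36, HOXB3 at 0.17 and HOXC4 at 0.12. HOXC13, a gene of the last paralog group known for its role in hair and nail, was thus the only gene of groups 9 to 13 among the 7 with at least 100 counts over the 15 libraries.

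**Figure D1:**
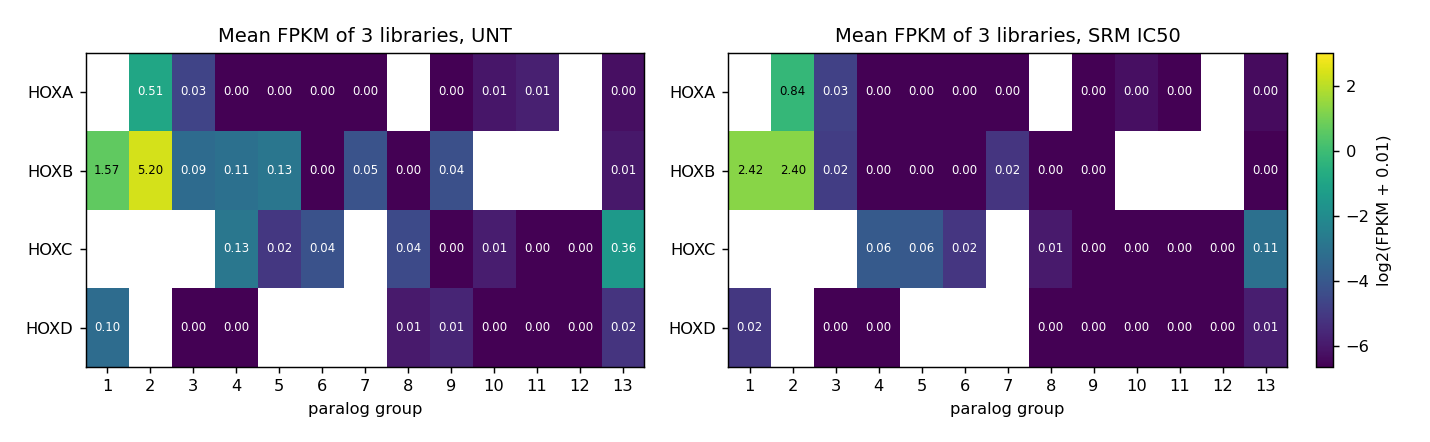
Mean FPKM of 3 libraries for HOX genes, by cluster (rows) and paralog group (columns), in UNT and SRM IC50; colour is log2(FPKM + 0.01) and white marks positions with no gene or with none shown. HOXB1 and HOXB2 are the highest of the genes drawn in both panels, and HOXB2 drops from 5.20 to 2.40 while HOXB1 goes from 1.57 to 2.42.

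The other members were scarce. Of the 39, 9 members had 10 to 99 counts over the 15 libraries, 21 had 1 to 9, and HOXC9 and HOXD12, the lowest, had 0 in every library. A count of 0 over the 15 libraries allows a level of up to 0.0092 CPM, for counting error only. The number of members with any count ran from 10 (SRM IC25 replicate 1) to 30 (SRM IC25 replicate 2), and the 2 deepest libraries had the most, 30 and 25, so a single absent member is not evidence of silence at these depths. A member entered the test only if enough libraries reached 10 counts at the median depth, equal to 0.565 CPM. Of the 39, 7 did, among them HOXA2, HOXB1, HOXB2, HOXB3, HOXC4 and HOXC13. HOXB3 and HOXC13 reached that level in no SRM IC50 library, and HOXC4 in none of the FPM IC50, SRM IC25 or SRM IC50 libraries, so these genes passed through the groups in which they were high.

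With SRM IC50, HOXB2 fell by 1.16 and HOXB1 rose by 0.60 on the log2 scale. HOXB3 and HOXC13 were also called lower, but they entered the test through libraries outside the SRM IC50 group. In the fit on UNT and SRM IC50 alone neither passed the expression filter, and 2 HOX genes were called. This comparison asks how the higher SRM exposure altered day 7 HOX expression. By edgeR's quasi-likelihood test with Benjamini-Hochberg adjustment over all 19012 genes tested, 4 of the 7 tested HOX genes passed an adjusted p of 0.05, 1 higher and 3 lower, a count given as a description since 2 of the 4 are HOXB3 and HOXC13. Over all genes 17.6% passed, 7.95% higher and 9.6% lower. CPM values of single genes are scaled by TMM, edgeR's correction for composition. In bulk RNA, fewer cells that express a gene and less RNA per cell cannot be told apart. The comparisons with UNT share its 3 libraries, and the SRM IC25 libraries serve in more than 1 comparison.

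HOXB2, a hindbrain gene and a known target of HOXB1, was at 9.79, 11.7 and 16.2 CPM in the 3 UNT libraries and at 4.84, 5.39 and 6.94 in SRM IC50. Every SRM IC50 library lay below every other library of the series, whose lowest was 9.79. Its log2 fold change was -1.16 (SE 0.20), with an adjusted p of 0.000578 in edgeR. The call held under all 15 alternatives tried, with an adjusted p of at most 0.0112.

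HOXB3, a hindbrain and pharyngeal arch gene, was at 0.895, 0.352 and 0.914 CPM in UNT and at 0.102, 0.102 and 0.351 in SRM IC50. The groups did not overlap, but the highest SRM IC50 library and the lowest UNT library differed by less than 0.01. The log2 fold change was -2.22 (SE 0.55), with an edgeR adjusted p of 0.00896, from 39 pooled counts in UNT and 9 in SRM IC50. Without SRM IC50 replicate 1 the adjusted p was 0.0716, and the call was kept when any other single library of the 2 groups was left out. HOXB3 reached the filter level in no SRM IC50 library, so these p-values are given as a description.

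HOXC13 was at 0.398, 1.29 and 1.04 CPM in UNT and at 0.237, 0.203 and 0.351 in SRM IC50, with no overlap. Its log2 fold change was -1.81 (SE 0.46) and its edgeR adjusted p 0.0113. It was called in 10 of the 14 alternatives that tested it. HOXC13 reached the filter level in no SRM IC50 library, so its p-values and this tally are given as a description. The largest adjusted p was 0.129, in limma on log2(FPKM + 1), where the change was -0.29 on that scale. Leaving out UNT replicate 2 gave 0.0722, leaving out SRM IC50 replicate 1 gave 0.0578 and leaving out SRM IC50 replicate 2 gave 0.0522. HOXC13-AS, a gene on the opposite strand that shares 172 exon bases with HOXC13 (7.1% of its exons), had mean levels of 0.23 CPM in UNT and 0.07 in SRM IC50 and was too low to test.

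HOXB1, which marks the fourth hindbrain segment and early posterior mesoderm and neural plate, moved the other way. It was at 4.22, 3.58 and 4.14 CPM in UNT and at 5.62, 6.46 and 6.15 in SRM IC50, a log2 fold change of 0.60 (SE 0.15) with an edgeR adjusted p of 0.0104. All 3 SRM IC50 libraries exceeded all 3 UNT libraries. Without UNT replicate 2, the lowest control, the adjusted p was 0.0572.

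HOXA2, the gene that sets second pharyngeal arch and rhombomere 2 identity, was at 1.04, 1.35 and 1.52 CPM in UNT and at 2.03, 2.24 and 2.02 in SRM IC50. The groups did not overlap, yet the log2 fold change of 0.69 (SE 0.24) had an edgeR adjusted p of 0.0607 and did not pass. It passed in the fit without the 6 FPM libraries, at an adjusted p of 0.0419, and in the fit with the replicate number as a block, at 0.0432. HOXC4 had a fitted change of -1.11 (log2, SE 0.75, adjusted p 0.384) from 19 and 10 pooled counts.

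**Figure D2:**
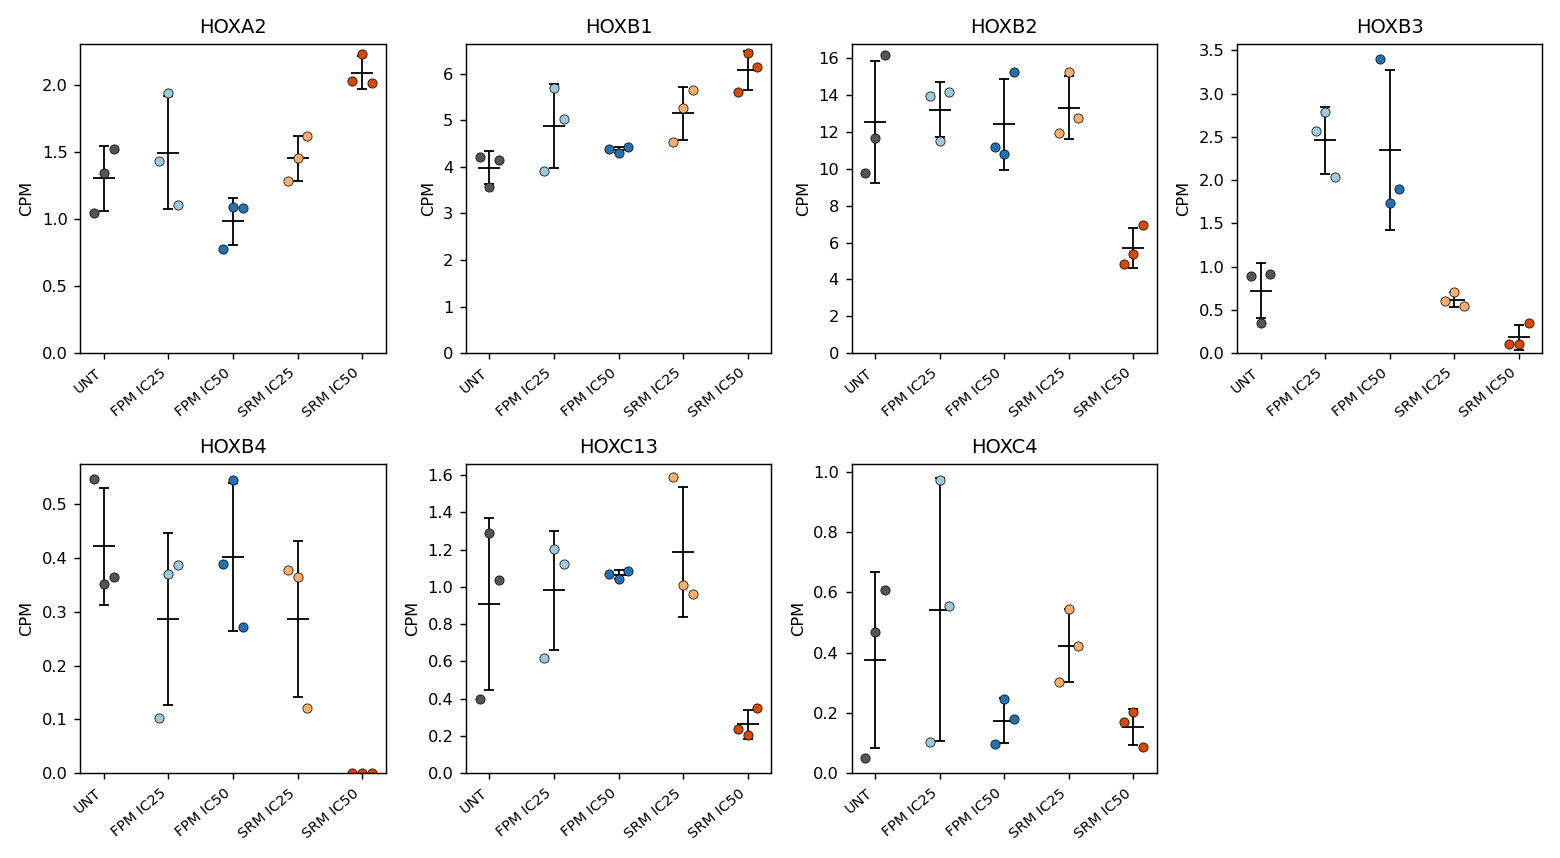
TMM-scaled CPM of 7 HOX genes in each library (points), with the mean and SD of 3 libraries per group (bar and whiskers); each panel has its own axis from 0. HOXB2 is lowest in the 3 SRM IC50 libraries, HOXB3 is highest in the 6 FPM libraries, and HOXB4 is 0 in all 3 SRM IC50 libraries.

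Ratios of counts within a library do not depend on how libraries are scaled. HOXB2 had 9.38, 8.65 and 10.6 counts for each HOXA2 count in UNT and 2.38, 2.41 and 3.43 in SRM IC50, a log2 difference of -1.82. HOXB1 had 0.431, 0.307 and 0.256 counts for each HOXB2 count in UNT and 1.16, 1.20 and 0.886 in SRM IC50, a log2 difference of 1.73. Both ratios separated the groups fully. With 3 libraries against 3, the two-sided exact permutation p of each was 0.1, which is the smallest this design allows. Each ratio pairs genes that moved in opposite directions in these same libraries, so that p is no separate support. For each HOXB2 count there were 0.021, 0.0189 and 0.0506 HOXB3 counts in SRM IC50. In UNT there were 0.0914, 0.0302 and 0.0564, and the groups overlapped. On the per-length scale HOXB2 stood above HOXB1 in every UNT library, at 4.199 to 6.58 FPKM against 1.40 to 1.71. In SRM IC50 the 2 genes overlapped, at 2.09 to 2.81 and 2.30 to 2.62 FPKM.

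Further along HOXB, 2 genes below the filter had no count in SRM IC50. They were picked for that pattern after their values were seen, so they are described with no test. HOXB4, which acts in the posterior hindbrain and blood stem cells, had 0.547, 0.352 and 0.365 CPM in UNT and 0 in all 3 SRM IC50 libraries. HOXB5, expressed in the hindbrain, gut and lung, had 0.149, 0.352 and 0.305 in UNT and 0 in all 3. The floor of 3 counts over the SRM IC50 group was 0.0495 CPM. Pooled UNT levels were 8.67 times that floor for HOXB4 and 5.28 times for HOXB5, from 23 and 14 counts. These folds leave out counting error in UNT and are not lower bounds. Exact 95% Poisson intervals in UNT reached down to 0.272 CPM for HOXB4 and 0.143 for HOXB5. In SRM IC50 they reached up to 0.0609 for both. HOXB4 was not at 0 in any of the other 12 libraries, where it had between 0.103 and 0.547, while HOXB5 was also 0 in SRM IC25 replicates 1 and 3. HOXB5 was low in the FPM groups as well, at 0.206, 0.0464 and 0.0504 in FPM IC25 and at 0.0973, 0.149 and 0.0904 in FPM IC50. All 3 FPM IC50 libraries lay below the lowest UNT library, the highest of them almost level with it. In SRM IC50, 23 of the 39 members had no count in any library, against 15 in UNT.

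As a share of HOX counts, groups 1 to 3 went from 90.77% ± 1.35 in UNT to 96.99% ± 0.708 in SRM IC50 (SD, n = 3), and the ranges, 89.3% to 91.8% and 96.2% to 97.5%, did not overlap. The HOXA share went from 29.41% ± 1.74 to 43.02% ± 5.05 and the HOXB share from 64.11% ± 1.88 to 54.02% ± 4.35, also without overlap. Summed over the 39 genes, HOX level was 24.85 to 33.62 CPM (TMM-scaled) in UNT and 21.03 to 23.0 in SRM IC50. These shares rest on a few genes and are given with no test.

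At the lower SRM exposure no HOX gene passed. For SRM IC25 against UNT, edgeR called 0 of 7, with 4.38% of all genes called. DESeq2 also called 0, and at an unadjusted p under 0.05 there was 1 gene, HOXB1 (adjusted p 0.152, log2 fold change 0.38, SE 0.15). HOXB1 was at 4.54, 5.27 and 5.66 CPM in SRM IC25, above all 3 UNT libraries. HOXB2 was at 11.9, 15.2 and 12.8, within the UNT range, and its log2 fold change was 0.10 (SE 0.19). HOXB3, at 0.605, 0.707 and 0.542, and HOXC13, at 1.59, 1.01 and 0.963, overlapped the controls.

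Between the SRM exposures, 3 of 7 HOX genes fell from IC25 to IC50 and 0 rose, with 26.9% of all genes called and 13.2% lower. The count is given as a description, since HOXB3 and HOXC13 reached the filter level in no SRM IC50 library. HOXB2 changed by -1.26 (log2, SE 0.20, edgeR adjusted p 0.000185), HOXC13 by -2.17 (SE 0.44 and adjusted p 0.00151) and HOXB3 by -2.04 (SE 0.54 and adjusted p 0.00982). The HOXB3 call was lost without SRM IC25 replicate 2 (adjusted p 0.0604) or SRM IC50 replicate 1 (0.0706), and HOXB3 did not pass the filter in the fit on these 2 groups alone. HOXB1 changed by 0.22 (log2, SE 0.15, adjusted p 0.292) between these exposures, so its SRM IC50 level was not separated from its SRM IC25 level by this test.

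**Figure D3:**
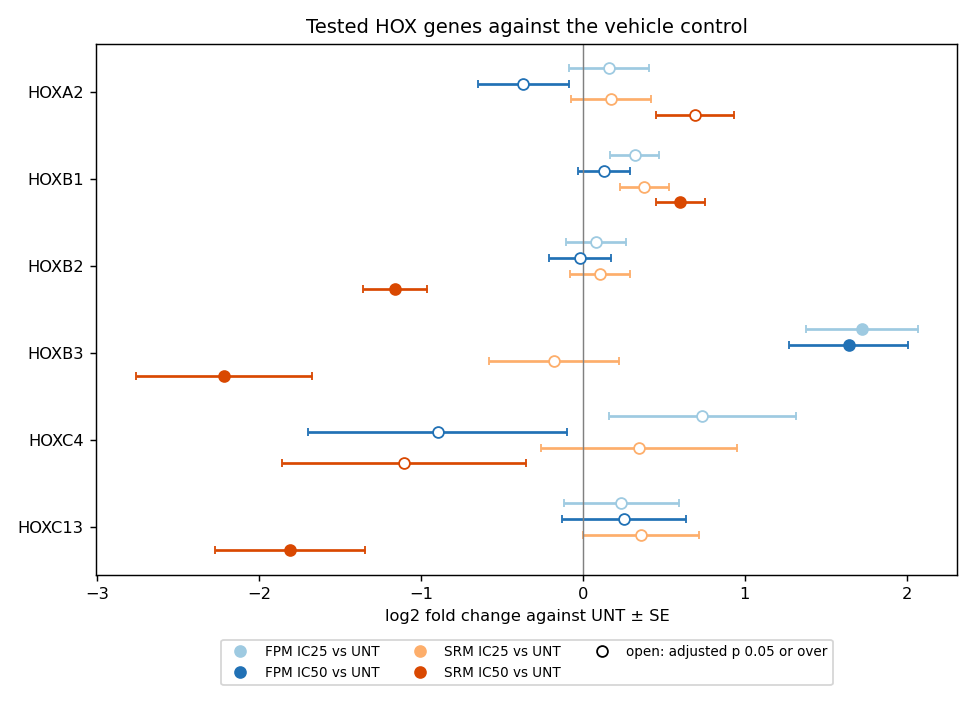
Log2 fold change against UNT (x axis, whiskers ± SE) of 6 tested HOX genes in the 4 particle groups; filled points have an adjusted p under 0.05. HOXB3 lies at 1.72 and 1.64 in the FPM groups and at -2.22 in SRM IC50, and HOXB2 leaves 0 in SRM IC50 alone among the 4 comparisons drawn.

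In both FPM groups 1 HOX gene, HOXB3, was higher than in UNT and 0 were lower. HOXB3 was at 2.57, 2.78 and 2.03 CPM in FPM IC25 and at 3.405, 1.73 and 1.90 in FPM IC50, all 6 above the highest of the other 9 libraries, 0.914. The log2 fold changes were 1.72 (SE 0.35, edgeR adjusted p 0.00188) and 1.64 (SE 0.37, adjusted p 0.00439). Over all genes 14.2% were called in FPM IC25 (10.6% higher) and 13.6% in FPM IC50 (10.8% higher). HOXB3 held under every alternative in which it was tested. It fell below the FPKM minimum of the limma fits.

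The rise in HOXB3 coincided with a feature of the FPM libraries that touches genes with a partner on the other strand. Among genes whose exons overlap a gene on the opposite strand, 22.4% were called higher in FPM IC25 and 22.9% in FPM IC50, whereas for genes lacking any gene on the other strand within 5 kb the shares were 1.27% and 1.06%. HOXB3 is in the first class. In GENCODE release 29 (GRCh38) it spans chr17:48548870-48604912 on the minus strand and shares 374 exon bases (5.0%) with HOXB-AS1 and 77 (1.0%) with HOXB-AS3 on the plus strand. It also shares 159 with HOXB4 and 433 with HOXB6 on its own strand. HOXB-AS1 was at 2.73, 3.70 and 4.08 CPM in UNT, at 3.70, 3.76 and 3.94 in FPM IC25 and at 4.09, 3.81 and 3.98 in FPM IC50, and was not called in either (log2 fold changes 0.13, SE 0.26, and 0.18, SE 0.27). HOXB-AS3 was at 0.37 in UNT and 0.27 in FPM IC50 on average. Whether reads from the opposite strand entered the HOXB3 counts of the FPM libraries was not tested, so the rise is given as one in counts over HOXB3.

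HOXB2, the neighbour of HOXB3, shares 87 exon bases (3.7%) with HOXB-AS1 and was not called with FPM. It was at 13.98, 11.5 and 14.2 CPM in FPM IC25 and at 11.2, 10.8 and 15.3 in FPM IC50, inside the UNT range of 9.79 to 16.2, with log2 fold changes of 0.08 (SE 0.19) and -0.02 (SE 0.19). HOXB3 had 0.184, 0.242 and 0.143 counts for each HOXB2 count in FPM IC25 and 0.304, 0.161 and 0.124 in FPM IC50, against 0.0914, 0.0302 and 0.0564 in UNT, with no overlap. HOXB1, which has no opposite-strand gene within 5 kb, had log2 fold changes of 0.32 (SE 0.15, adjusted p 0.201) and 0.13 (SE 0.16, adjusted p 0.682). Its levels were 3.91, 5.70 and 5.04 CPM in FPM IC25, which overlapped UNT. In FPM IC50 they were 4.38, 4.31 and 4.43, above the highest UNT library at 4.22. HOXC13, which shares exon bases with HOXC13-AS, was not called with FPM either, at 0.24 (SE 0.35) and 0.25 (SE 0.38). These genes differ from HOXB3 in level or in shared exon bases, so their values are no test of where the HOXB3 reads came from.

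**Figure D4:**
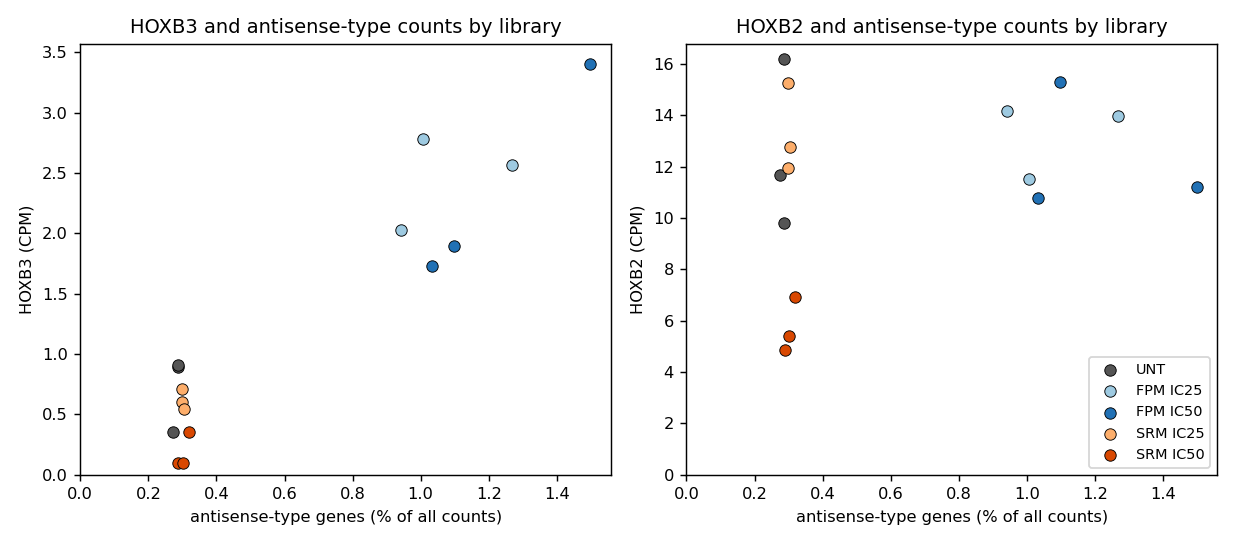
TMM-scaled CPM of HOXB3 (left) and HOXB2 (right) in each of the 15 libraries against the percentage of the library's counts on antisense-type genes. The 6 FPM libraries lie to the right, at 0.9419% to 1.499%, and are the highest for HOXB3 only; HOXB2 is lowest in SRM IC50, which has an antisense share like that of UNT.

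Between the FPM exposures 0 of 7 HOX genes were called by edgeR or by DESeq2, and 0.0105% of all genes were called. HOXC4 alone had an unadjusted p under 0.05 (log2 fold change -1.64, SE 0.70). HOXB3 had a log2 fold change of -0.08 (SE 0.31) between them. The concentrations of the groups named IC25, and those named IC50, differ between the particles, so the next values compare inhibitory levels and not doses.

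At the IC25 level, 1 of 7 HOX genes differed between FPM and SRM: HOXB3 was higher in FPM by 1.90 (log2, SE 0.34, edgeR adjusted p 0.000619), where 10.5% of all genes were called and 9.89% were higher. Whether opposite-strand reads entered the HOXB3 counts of the FPM libraries was not tested, so the HOXB3 differences at both levels are in counts over HOXB3. At the IC50 level, 5 of 7 differed, where 39.3% of all genes were called. That count is a description too, since HOXB3 and HOXC13 entered the test through libraries outside the SRM IC50 group. HOXA2 (-1.06, SE 0.26, adjusted p 0.00411) and HOXB1 (-0.47, SE 0.16, adjusted p 0.0239) were lower in FPM IC50, and HOXB2 (1.14, SE 0.20), HOXB3 (3.86, SE 0.47) and HOXC13 (2.06, SE 0.47) were higher. HOXA2 was at 0.778, 1.09 and 1.08 CPM in FPM IC50, below all 3 SRM IC50 libraries. The HOXB1 difference lost its call in 5 alternatives, with adjusted p-values up to 0.0833.

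The change from IC25 to IC50 was tested against itself in the other particle with an interaction contrast. It differed for 3 of 7 HOX genes, where 14.6% of all genes were called. Again the count is a description, since HOXB3 and HOXC13 entered through libraries outside the SRM IC50 group. The SRM step minus the FPM step was -1.17 (log2, SE 0.27, edgeR adjusted p 0.00915) for HOXB2, -2.19 (SE 0.58, adjusted p 0.0179) for HOXC13 and -1.96 (SE 0.63, adjusted p 0.0478) for HOXB3. HOXB2 was called in all 20 alternatives. HOXB3 was called in 7 of 18, with adjusted p-values up to 0.171, and HOXC13 in 17 of 20. HOXC13 was lost in limma on log2(FPKM + 1), at 0.0913, and without SRM IC50 replicate 1 (0.0522) or replicate 2 (0.0568). HOXA2 had 1.05 (SE 0.36, adjusted p 0.0603). In the F test across the 5 groups, 5 of 7 HOX genes differed, where 40.8% of all genes did: HOXB3, HOXB2, HOXC13, HOXB1 and HOXA2, with edgeR adjusted p-values from 7.89e-06 to 0.0335. The filter limit on HOXB3 and HOXC13 holds for this count as well, as does the untested strand question for HOXB3.

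Genes that act on or with the HOX clusters were read from lists chosen with earlier results of these data known, and were described by counts, to be set beside the 7.95% of all genes called higher and 9.6% called lower in SRM IC50 against UNT. Of the 9 TALE cofactors, all tested, 1 rose and 3 fell in SRM IC50 against UNT, with a median log2 fold change of -0.07 against 0 for all genes. MEIS1 fell by 2.18 on the log2 scale (SE 0.13, edgeR adjusted p 1.49e-08), from 42.8 ± 2.66 to 9.27 ± 1.79 CPM (SD, n = 3). MEIS2 had -0.66 and PKNOX1 -0.36, while MEIS3 had 0.52. PBX2, PBX3, PBX4 and PKNOX2 were among those not called.

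Of 15 CDX and posterior inducer genes, 10 were tested and 3 rose and 3 fell in SRM IC50, with a median of -0.01. CDX2, an activator of mid-cluster HOX genes that also marks trophectoderm, was at 2.83 ± 0.623 CPM in UNT and 0.67 ± 0.145 in SRM IC50, a log2 fold change of -2.08 (SE 0.28, edgeR adjusted p 5.95e-05). CDX1 had -1.66 and WNT5A, a noncanonical WNT ligand, -1.04. SP5, a direct target of WNT signalling, rose from 26.5 ± 2.70 to 72.7 ± 9.498 CPM (log2 fold change 1.45, SE 0.15). SP5 was lower in FPM IC50 (log2 fold change -0.50, adjusted p 0.0459), the 1 call among the 10 tested there, where 13.6% of all genes were called.

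Of 18 retinoid pathway genes, all tested, 4 rose and 4 fell in SRM IC50, with a median of 0.00. CYP26A1, which degrades retinoic acid, went from 13.01 ± 0.938 to 38.8 ± 4.70 CPM (log2 fold change 1.57, SE 0.12, edgeR adjusted p 1.38e-07), and CYP26C1, a related enzyme, had 0.85. RARB, a receptor that retinoic acid itself induces, went from 20.3 ± 2.07 to 7.29 ± 1.23 (log2 fold change -1.46, SE 0.13). RDH10, which makes the retinoic acid precursor, had -1.17. In FPM IC25, 2 of the 18 were called, both lower, a smaller share than the 14.2% of all genes: CYP26A1 had -0.65 and ALDH1A1, a retinaldehyde dehydrogenase, -1.06.

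Of 22 Polycomb and Trithorax genes, all tested, 3 rose and 0 fell in SRM IC50, with a median of 0.06. That share is below the 17.6% of all genes called in either direction, so the count says nothing particular to the list. The 3 were JARID2, a Polycomb complex 2 cofactor (log2 fold change 0.95, SE 0.16), PHC1, a Polycomb complex 1 subunit (0.99, SE 0.19) and CBX2, another (0.30, SE 0.10). In SRM IC25, RNF2, MTF2 and BMI1 were lower (-0.49, -0.32 and -0.49) and MEN1 was higher (0.32), 4 of 22 where 4.38% of all genes were called. The fit without the 6 FPM libraries called 0 genes of any kind in SRM IC25 against UNT, so these 4 calls were lost in it. MTF2 was also lower in FPM IC25 (-0.25) and EED in FPM IC50 (-0.43), each the 1 call of the list, where 14.2% and 13.6% of all genes were called.

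Of 18 noncoding and antisense genes of the HOX clusters, 2 were tested, HOXB-AS1 and HOTAIRM1, and neither passed in any of the 9 contrasts; the smallest unadjusted edgeR p, for HOTAIRM1 in FPM IC25 against SRM IC25, became 0.240 when adjusted. Their summed level was 5.765 to 7.066 CPM in UNT and 4.537 to 7.638 in SRM IC50. In SRM IC50 HOXB-AS1 had a log2 fold change of -0.22 (SE 0.27) while the overlapping HOXB2 and HOXB3 fell. HOTAIRM1, a noncoding gene of the HOXA cluster, had -0.08 (SE 0.22).

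**Figure D5:**
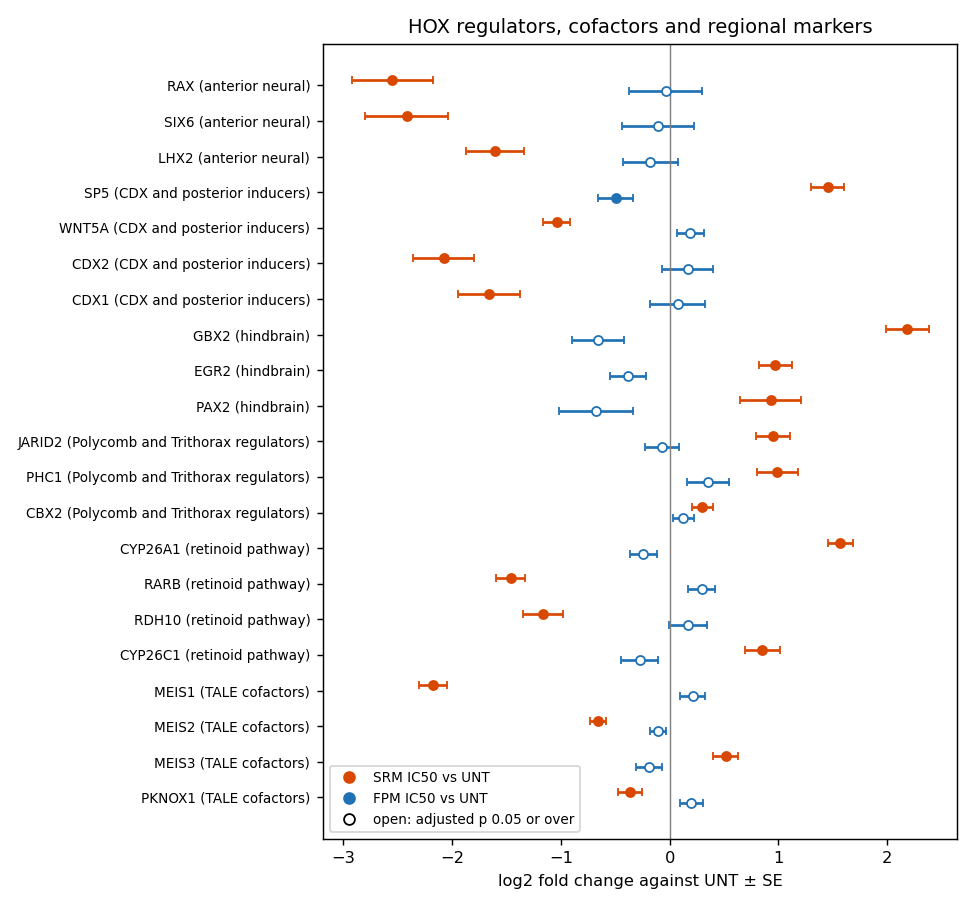
Log2 fold change against UNT (x axis, whiskers ± SE) in SRM IC50 and FPM IC50 of called genes with the smallest p-values in 6 lists; filled points have an adjusted p under 0.05. In SRM IC50 MEIS1 lies at -2.18, CDX2 at -2.08 and RARB at -1.46, against GBX2 at 2.18 and CYP26A1 at 1.57; in FPM IC50 SP5 alone of the genes drawn is filled.

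Regional and cell-type markers moved beside the HOX genes in SRM IC50, where 7.95% of all genes were called higher and 9.6% lower. Of 8 hindbrain genes, 5 were tested, 3 rose and 1 fell. GBX2, needed at the midbrain-hindbrain border, went from 3.27 ± 0.166 to 14.9 ± 1.56 CPM (log2 fold change 2.18, SE 0.20). EGR2, a rhombomere 3 and 5 factor, had 0.97 and PAX2 had 0.93. Of 9 anterior neural genes, 1 rose and 6 fell, with RAX at -2.55, SIX6 at -2.42 and LHX2 at -1.61. In FPM IC25, where 14.2% of all genes were called, 7 of these 9 fell, among them SIX3 (-1.24), LHX2 (-1.20) and PAX6 (-1.14), while of the HOX genes HOXB3 alone passed.

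Markers of other cell types changed too. All 12 amnion and trophoblast markers fell in SRM IC50, and their summed level was 1776 to 2046 CPM in UNT and 385.0 to 443.7 in SRM IC50. The sum of 9 pluripotency markers was 1556 to 1696 and 2364 to 2880, and 7 rose. The sum of 10 lateral plate and cardiac mesoderm markers was 301.1 to 374.6 and 108.9 to 134.1, with 4 of 7 tested lower. The sum of 11 limb and craniofacial mesenchyme markers was 452.7 to 550.5 and 206.2 to 230.2, with 1 higher and 5 lower of 10 tested. The sum of 7 neural crest markers was 418.3 to 524.3 and 632.8 to 672.6, with 4 higher. The sum of 8 osteoblast markers was 672.5 to 766.6 and 941.1 to 1056, with 2 higher and 1 lower of 6 tested. The sum of 10 paraxial mesoderm markers was 72.0 to 97.31 and 112.2 to 130.6, with 3 higher and 1 lower of 7 tested. The sum of 8 endoderm markers was near 0, at 2.485 to 5.056 and 5.846 to 9.218, with 1 higher of 3 tested. These 8 sums did not overlap between the groups, whereas that of 8 neuron markers did, at 50.09 to 57.93 and 41.38 to 51.49. IBSP was at 0 in all SRM IC50 libraries and 1 endoderm marker in all UNT libraries, and the other members of these lists had a count in both groups.

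Marker sums also moved in the other groups. The pluripotency sum was below that of every UNT library in FPM IC25 (1140 to 1175), FPM IC50 (1172 to 1430) and SRM IC25 (1172 to 1268). Of its 9 genes, 4, 3 and 3 were called lower, where 14.2%, 13.6% and 4.38% of all genes were called in either direction. The 3 SRM IC25 calls were lost in the fit without the FPM libraries, which called no gene there. Beside the HOXB3 values in FPM IC25, the limb and craniofacial mesenchyme sum was higher, at 564.9 to 602.5, the osteoblast sum lower, at 648.7 to 666.2, and the anterior neural sum lower, at 189.3 to 312.0 against 437.0 to 481.5 in UNT. In FPM IC50 the hindbrain sum was lower, at 21.69 to 25.95 against 28.48 to 30.57, while 0 of its 5 tested genes were called. These sums were picked because their ranges did not overlap that of UNT, and they are given with no test. The part of these cell types in the HOX changes was not tested.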

How the data were processed

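The 15 libraries were grouped by their labels, and control columns were matched through the sample descriptions. The authors' tools, per the submitters' processing notes, were FastQC 0.11.7, HISAT2 2.2.1 (build GRCh38), SAMtools 1.10, featureCounts (Subread 2.0.15) and DESeq2. The counting's strand setting and annotation release: not given in the sources used here. The libraries were made with a directional kit, per the labels. The deposited tables hold whole-number counts per gene, and FPKM values that equal those counts over the deposited gene length and library total.

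Counts were fitted with edgeR 4.0.16 (R 4.3.3) over all 15 libraries: filterByExpr (minimum count 10), TMM, robust quasi-likelihood F tests on 5 group means, and Benjamini-Hochberg adjustment over all 19012 genes tested, with a threshold of 0.05. The fit was tested on simulated data. DESeq2 1.42.0 and limma 3.58.1 (on log2 FPKM with pseudocounts of 1 and 0.1) were alternatives, with others in the closing section. Exact Poisson intervals and floors of 3 counts cover counting error only. Overlaps came from GENCODE release 29, which placed 57055 of the 60675 identifiers. Symbols came from a table of approved names, which matched 41209.

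The HOX genes and all lists were chosen with earlier results of these data known. Per-library values are given for members called in at least 1 test and for the extremes of mean FPKM. From each list up to 4 called genes with the smallest p are named. Genes on the opposite strand of a called member are named whatever their p. HOXB4 and HOXB5 were added after their values were seen. HOX promoters other than those shown, and proteins, were not used here. Some list and cluster genes enter the counts and sums and are not reported here by name. Counts of replicate libraries differed beyond sampling noise (chi-square of at least 5.284 per gene), so none was taken for a repeat deposit.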

Additional observations from a re-analysis of the deposited data

Results flagged for a closer look

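These results are listed because the change from IC25 to IC50 differed between SRM and FPM in an edgeR interaction contrast at an adjusted p under 0.05. Each value is the SRM step minus the FPM step on the log2 scale, and no explanation is weighed.

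Of the HOX genes, HOXB2 had -1.17, HOXB3 had -1.96 and HOXC13 had -2.19. Of the TALE cofactors, MEIS1 had -2.40 (adjusted p 3.6e-07), MEIS2 had -0.57 and PKNOX1 had -0.48. Of the posterior inducers, CDX1 had -1.76, CDX2 had -2.34, WNT5A had -0.97 and SP5 had 1.497. Of the retinoid genes, RARB had -1.57, ALDH1A1 had -2.05, RDH10 had -0.87 and CYP26A1 had 1.25. Of the Polycomb genes, JARID2 had 0.93, MTF2 had 0.34 and RNF2 had 0.50. Of the anterior neural genes, SIX3 had -1.85, SIX6 had -3.21, RAX had -3.49, LHX2 had -2.15 and PAX6 had -1.59. Of the hindbrain genes, EGR2 had 1.24, GBX2 had 2.35 and PAX2 had 1.54.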

How the results depend on the processing

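Of the 18 HOX fold changes called, 11 kept their direction and their call under every alternative run for them, and none changed direction in any. Both counts include HOXB3 and HOXC13, which passed the filter through the groups in which they were high. All alternatives used the same deposited tables, so none changed how reads were assigned to strands. Against the 4 HOX genes called for SRM IC50 against UNT, limma on log2(FPKM + 1) gave 2 and the fit on the compared groups alone gave 2, in which HOXB3 and HOXC13 did not pass the filter. Leaving out 1 library gave 2 to 5. The FPM IC25 and FPM IC50 comparisons with UNT and the FPM IC25 comparison with SRM IC25 gave 0 in place of 1 in both limma fits, which do not test HOXB3 because its FPKM is under the minimum of 0.5. The interaction gave 1 in place of 3 in limma on log2(FPKM + 1), and 1 to 4 when 1 library was left out, with 1 without SRM IC50 replicate 1 or 2. The 5-group test gave 3 in place of 5 in limma on log2(FPKM + 1), and 3 to 6 when 1 library was left out, with 3 without FPM IC50 replicate 2, SRM IC25 replicate 2, or SRM IC50 replicate 1 or 2. The GC correction gave an adjusted p of 0.0600 for HOXB3 in the interaction. Except where a cause is stated, the cause was not tested.

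Libraries with the same replicate number had correlated deviations over 0.1 in 16 of 30 pairs (r from -0.14 to 0.438). The main fit did not take the numbers as pairs, so a shared effect of the replicate number, if any, is left in it. With the replicate block, SRM IC50 against UNT had 5 HOX genes called, and no count moved by over 1.5 times. Depth limits the 32 untested HOX genes, 31 of which never exceeded 8 counts in a library.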
